A study of Mus musculus with 23 samples.

Results

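RNA was compared between day 11 and day 8 of CT26 tumour growth in immature myeloid cells taken from mouse blood. The comparison was chosen by the labels alone, as all libraries of these CT26 days and every gene in their table, which gave 6 of the 23 samples of the series. The day 11 group was 3 libraries from BALB/c mice at day 11, and the day 8 group was 3 libraries from BALB/c mice at day 8. Both groups carried CT26, a colon carcinoma line that grows in this strain. The other CT26 libraries, 3 at day 4 and 3 at day 0, lent their spread to the fit and place the step within the 4 days. The labels name the sorted cells as immature myeloid cells or MDSCs, bound and separated with magnetic beads, and state 3 biological repeats per group. They do not say beyond that whether the repeats were separate animals, so every p-value below measures the spread between these libraries. The study asked how the transcriptome of these blood cells follows the growth of a tumour.

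Immature myeloid cells, also called myeloid-derived suppressor cells, are neutrophil-like and monocyte-like cells that leave the bone marrow early during cancer and inflammation. They are known for restraining T cells through arginase, nitric oxide, reactive oxygen species and prostaglandins. Neutrophil precursors pack their granules in a fixed order while they mature, so granule transcripts are highest in young cells. In tissue short of oxygen, the transcription factor HIF-1 switches on enzymes of glycolysis.

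The values are normalized counts, gene reads divided by one factor per library, so they allow a gene to be compared between libraries but not genes with each other. Library totals were 11.8e6, 14.3e6 and 13.3e6 normalized counts at day 11, and 12.0e6, 12.0e6 and 12.5e6 at day 8. One library stood apart from its group. Day 11 replicate 1 lay at 37.9 on the second principal component, which held 13.9% of the variance, while day 11 replicates 2 and 3 lay at -26.1 and -18.8. In that library 850 genes were more than 1 log2 unit above both other day 11 libraries, against 50 in replicate 2 and 42 in replicate 3. Counts without that library are given beside most group results. Of the mature neutrophil genes 26 of 27 passed the filter on low values. Their sum made up 8.88%, 9.27% and 8.83% of the day 11 libraries, and 8.21%, 8.71% and 8.83% of the day 8 libraries. All 25 classical monocyte genes and 12 of 13 eosinophil markers also passed the filter, so passing it does not identify the cells.

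At day 11 many transcripts of immediate early genes, eosinophils, lymphocytes and MHC class II were lower than at day 8, and many of neutrophil granules, glycolysis and the hypoxia response were higher. Of 11373 genes with a mean of at least 5 normalized counts, 2375 (20.9%) passed an adjusted p of 0.05 in limma, the linear model used throughout. They were 1244 genes higher at day 11 (10.9%) and 1131 lower (9.94%). In 3729 genes (32.8%) the day 11 and day 8 libraries did not overlap, and 2256 genes (19.8%) were both called and free of overlap. Without day 11 replicate 1 the number called was 3428 (30.1%), with 1917 higher (16.9%) and 1511 lower (13.3%), and 2197 of the 2375 genes were among them. The balance of the 2 directions depended on the scaling. When each library was brought to one common total, which moved the median of all genes by -0.11 on the log2 scale, 821 genes were higher and 1688 lower, so that the higher ones made up 32.7% of the calls instead of 52.4%. No gene was called in the opposite direction under any of the 21 alternatives.

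**Figure D1:**
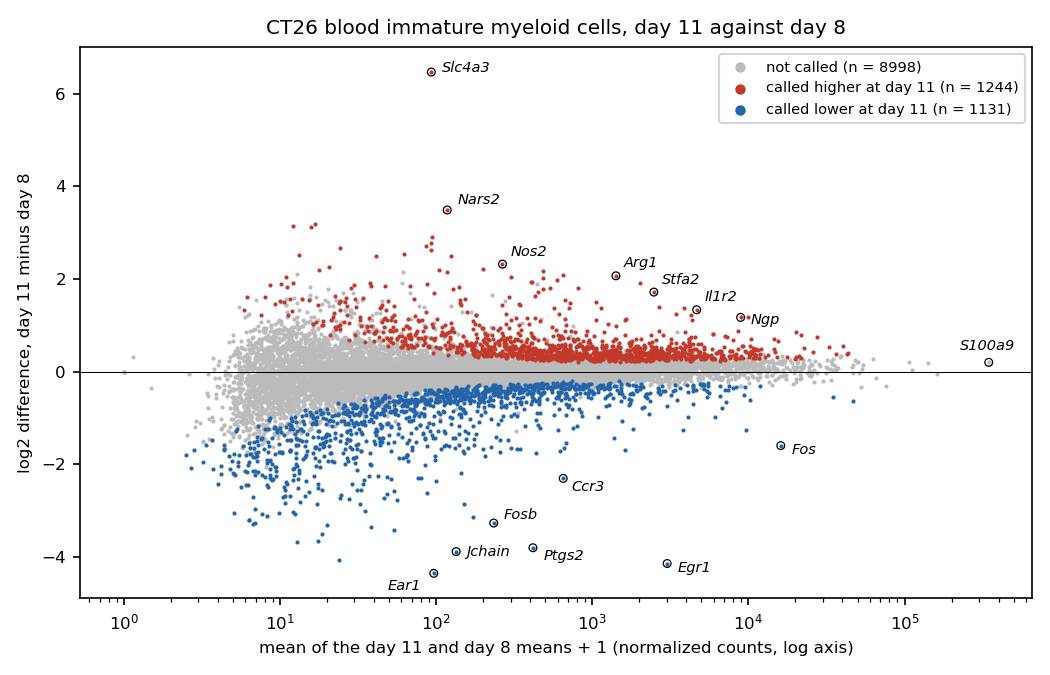
Log2 difference between day 11 and day 8 (day 11 minus day 8, vertical axis) against the mean level of each of 11373 genes (horizontal axis, log scale). The 1244 genes called higher and the 1131 called lower are spread over the whole range of levels, and the other 8998 were not called.

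Several immediate early genes fell at day 11. They encode the transcription factors and phosphatases that cells switch on within minutes of a stimulus. Of 30 members tested, 13 were lower and 1 was higher (Klf6, a zinc finger factor, log2 difference 0.36, adjusted p = 0.00655), with a median log2 difference of -0.30 against 0.01 over all genes tested. Leaving out day 11 replicate 1 gave 14 lower and 4 higher. In each list described here, members beyond the 4 with the smallest p are named after their values were seen.

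Egr1, a zinc finger transcription factor induced by growth factors and stress, had 341, 393 and 247 normalized counts in the day 11 libraries, against 5441, 6111 and 5576 in the day 8 libraries. Every day 11 library lay far below every day 8 library. Its log2 difference was -4.15 ± 0.14 (SE), with an adjusted p of 4.79e-12. Fosb (chromosome 7, 19302696 to 19310051, minus strand), a partner in the AP-1 transcription factor, had 38.8, 39.1 and 51.7 at day 11 against 414, 409 and 445 at day 8. Fos, the founding member of that family, had 6818, 8893 and 8404 at day 11 against 24298, 24313 and 24031 at day 8. Neither gene had overlapping groups, and the log2 differences were -3.27 ± 0.11 for Fosb and -1.60 ± 0.11 for Fos. Nr4a1, an orphan nuclear receptor, was lower at day 11 as well (262, 285 and 286 at day 11 against 579.7, 679 and 617 at day 8, log2 difference -1.16 ± 0.08). Not every member was called. Jun had 1266, 1228 and 1108 at day 11 against 1031, 1197 and 1044 at day 8, with groups that overlapped and an adjusted p of 0.287. Atf3, another stress-induced factor, had 308, 307 and 297 at day 11 against 263, 268 and 259 at day 8 and did not pass the test (adjusted p = 0.0935).

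Ptgs2 (chromosome 1, 150100031 to 150108227, plus strand) encodes cyclooxygenase-2, the inducible enzyme of prostaglandin synthesis, and belongs to the suppressor effector list. It had 55.0, 59.8 and 48.3 normalized counts at day 11 against 859.5, 847 and 627 at day 8. No day 11 library came near a day 8 library, and the log2 difference of -3.81 ± 0.12 had the smallest adjusted p of the genes named here, 4.30e-12. Among 18 prostaglandin and leukotriene genes tested, the ones called higher were Ptges3, Alox5ap, Ptges2 and Ltb4r1, and the ones called lower were Ptgs2 and the prostacyclin receptor gene Ptgir; without day 11 replicate 1 there were 4 higher and 4 lower. Alox5ap, which presents arachidonic acid to 5-lipoxygenase, had 23594, 29544 and 26680.1 at day 11 against 16779.6, 19439 and 19687 at day 8 (log2 difference 0.51 ± 0.11, adjusted p = 0.00241). Its call ended when days 8 and 11 were fitted alone and in edgeR on 8 libraries, where the largest adjusted p was 0.0713.

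Eosinophil genes fell almost as a block. Of 12 members tested, 11 were lower and none was higher, and 11 had groups that did not overlap. The median log2 difference was -2.31, and it was -2.50 without day 11 replicate 1, with 11 again lower. Ear1 (chromosome 14, 43818765 to 43875517, minus strand), an eosinophil-associated ribonuclease, had 10.8, 8.05 and 5.75 normalized counts at day 11 against 196, 177 and 176.5 at day 8. That was the largest fall among the genes named by the size of their change. The log2 difference was -4.36 ± 0.17 (limma adjusted p = 2.55e-11). However, reads of Ear1, Ear2 and Ear6 cannot be placed with certainty because these genes are nearly identical.

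The receptors that define eosinophils fell too. Ccr3, the eotaxin receptor, had 285, 170.2 and 209 at day 11 against 1172, 1121 and 947 at day 8 (log2 difference -2.31 ± 0.14, adjusted p = 1.11e-08). Il5ra, the receptor subunit through which interleukin-5 keeps eosinophils alive, had 28.9, 21.9 and 24.1 at day 11 against 138, 119.7 and 121 at day 8 (log2 difference -2.30 ± 0.14). In both genes each day 11 library was lower than each day 8 library. Prg3, a granule major basic protein, had 0 reads at day 11 against 24 at day 8, which with a floor of 3 reads over the group means at least 7.70-fold lower, and the list's median was -2.31 with that bound in place of the fitted value. Siglecf, a surface lectin, fell least among the called members (687, 663 and 614 at day 11 against 984, 933 and 833 at day 8, log2 difference -0.48 ± 0.08). Cd24a, which many blood cells express, was the member not called (adjusted p = 0.153). The members' summed level was 9335 to 10157 normalized counts at day 11 against 13028 to 14250.5 at day 8, most of it Cd24a. In bulk samples, fewer cells of a type and less RNA per cell cannot be told apart.

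Markers of lymphocytes fell in the same libraries. Of the B cell markers 15 of 16 tested were lower, with a median log2 difference of -1.53 (15 and -1.77 without day 11 replicate 1). Bank1, a scaffold protein of B cell receptor signalling, had 91.1, 67.9 and 50.6 normalized counts at day 11 against 234, 232 and 213 at day 8. The groups did not overlap, and the log2 difference was -1.72 ± 0.15 (adjusted p = 5.69e-07). The summed level of the B cell markers was 467 to 920.1 at day 11 against 1708 to 2490 at day 8. Of 8 plasma cell markers tested 5 were lower, and 1 was higher, Xbp1, a secretory-pathway factor that other cells also use. Jchain (chromosome 5, 88519809 to 88527891, minus strand), which links antibodies into polymers, had 19.8, 10.4 and 18.4 at day 11 against 179.9, 289 and 283 at day 8. It had the third largest fall among the genes named by the size of their change, with a log2 difference of -3.89 ± 0.25 and an adjusted p of 1.37e-08.

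T cell markers were lower in 14 of 17 members tested (median log2 difference -1.51), and without day 11 replicate 1 in 12 (median -1.29). NK cell markers were lower in all 8 tested (median -2.44), with or without that library. The levels were low throughout. Gzma, a protease that killer cells release, had 2.71, 4.60 and 1.15 normalized counts at day 11 against 31.0, 47.1 and 27.5 at day 8 (log2 difference -3.31 ± 0.36, adjusted p = 6.84e-06). Ncr1, an activating receptor of NK cells, had 1 read over the day 11 libraries against 31 over the day 8 libraries, a ratio of 0.0335 with a 95% interval of 0.000822 to 0.201 that covers counting error only. In both genes every day 11 library lay below every day 8 library. The summed level of the NK markers was 9.20 to 27.6 at day 11 against 125 to 173 at day 8, with Klrb1c, Klrd1 and Klra8 at 0 at day 11 and Klra8 at 0 at day 8. That of the T cell markers was 322 to 412 at day 11 against 618 to 721 at day 8. With a mean of at least 20 required, only 1 NK marker and 4 T cell markers were called lower, because few of these genes passed that filter, and DESeq2 on 8 libraries called 2 and 7.

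MHC class II molecules present peptides to helper T cells, and their genes are switched on together by the coactivator CIITA. Of 11 class II presentation genes tested, 10 were lower at day 11, and the same number was lower without day 11 replicate 1. The median log2 difference was -1.51, and -1.87 without that library. Ctss, a protease that trims the invariant chain, was the member not called (log2 difference 0.44, adjusted p = 0.0876). A pair of the promoters is shown because CIITA acts through a shared set of boxes in front of these genes, one of which holds an inverted CCAAT. The windows run from 250 bases before to 50 after the start, 5′ to 3′ on the gene's strand, in RefSeq's GRCm38.p6, a C57BL/6J sequence, while the mice were BALB/c. H2-Aa lies at chr17:34287774-34288073 on the minus strand and H2-Eb1 at chr17:34305617-34305916 on the plus strand. Capitals mark CTGATTGG, read on both strands, which holds ATTGG, the CCAAT box on the other strand.
H2-Aa: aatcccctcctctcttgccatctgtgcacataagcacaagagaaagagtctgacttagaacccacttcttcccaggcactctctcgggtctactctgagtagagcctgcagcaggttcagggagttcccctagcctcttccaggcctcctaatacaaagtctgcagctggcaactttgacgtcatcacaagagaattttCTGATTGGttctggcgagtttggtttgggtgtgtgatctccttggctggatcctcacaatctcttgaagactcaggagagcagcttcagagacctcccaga
H2-Eb1: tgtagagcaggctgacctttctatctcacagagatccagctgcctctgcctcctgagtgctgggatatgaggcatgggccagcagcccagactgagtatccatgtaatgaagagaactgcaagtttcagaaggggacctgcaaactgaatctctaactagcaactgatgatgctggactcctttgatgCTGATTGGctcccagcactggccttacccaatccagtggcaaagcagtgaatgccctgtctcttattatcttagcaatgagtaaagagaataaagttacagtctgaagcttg
These windows were picked because they hold those letters, and H2-DMb2 and H2-DMb1, with smaller p, were passed over because theirs do not. The letters were found in 3 of 8 windows of class II genes called lower (37.5%), in the window of no gene of the list that was not called (0 of 1), and in 1346 of all 32851 windows (4.10%). A match is a run of letters and was not tested as a site.

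Ciita, the coactivator itself, had 12.6, 15.0 and 14.9 normalized counts at day 11 against 54.0, 68.5 and 59.2 at day 8 (log2 difference -2.02 ± 0.20, adjusted p = 2.19e-06). H2-Ab1, the beta chain of the class II molecule I-A, had 123, 114 and 48.3 at day 11 against 321, 361 and 263 at day 8 (log2 difference -1.82 ± 0.24, adjusted p = 4.86e-05). Its alpha chain gene H2-Aa, whose promoter is printed above, had 155, 125 and 57.5 at day 11 against 313, 441 and 247 at day 8. H2-Eb1, for the beta chain of I-E, had 185, 145 and 52.9 at day 11 against 422, 426 and 305 at day 8. In all 4 genes the groups did not overlap, and in the 3 H2 genes day 11 replicate 3 was the lowest library. The invariant chain gene Cd74 had 971, 883 and 442 at day 11 against 1999, 2380.4 and 1549 at day 8 (log2 difference -1.43 ± 0.21). B cells also express class II genes, and their markers fell in the same libraries as given above; their part in this result was not tested. The sequence of H2 genes differs between mouse strains, which can move the count of reads placed on them. Class I genes, which nearly all cells express, had 2 of 16 members lower and none higher (H2-T22, log2 difference -0.85, and H2-K1, -0.29), and the call of H2-K1 ended in 8 of the 21 alternatives. Without day 11 replicate 1 there were 1 higher and 2 lower, and with each library scaled to one total 6 were lower.

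Interferon-stimulated genes were lower at day 11, but less evenly. Of 35 type I interferon response genes tested, 18 were lower and none was higher, with a median log2 difference of -0.41; without day 11 replicate 1 there were 17 lower and 2 higher, with a median of -0.31. Ifit3, which belongs to a family that blocks translation of viral RNA, had 318, 378 and 329 normalized counts at day 11 against 1198, 943 and 889 at day 8 (log2 difference -1.55 ± 0.12, adjusted p = 1.11e-07). Ifit2 had 262, 392 and 313 at day 11 against 1188, 909 and 913 at day 8 (log2 difference -1.64 ± 0.15). Neither gene had overlapping groups. Rsad2, the antiviral enzyme viperin, had 2371, 3335 and 2589 at day 11 against 6173, 5047 and 5101 at day 8. Irf7, a transcription factor that amplifies the response, was lower (log2 difference -0.51, adjusted p = 0.00281). Of 15 GTPase genes known for induction by interferon-gamma, 3 were lower (Gbp4, Gbp6 and Gbp9) and none was higher. Gbp4 and Gbp9 overlap on the minus strand of chromosome 5 (105115767 to 105139586 and 105077630 to 105139539). Reads of the shared stretch cannot be placed with certainty, so these calls may not be separate. Without day 11 replicate 1 there were 3 lower and 3 higher, and the call of Gbp6 ended in 12 of the 20 alternatives that tested it.

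**Figure D2:**
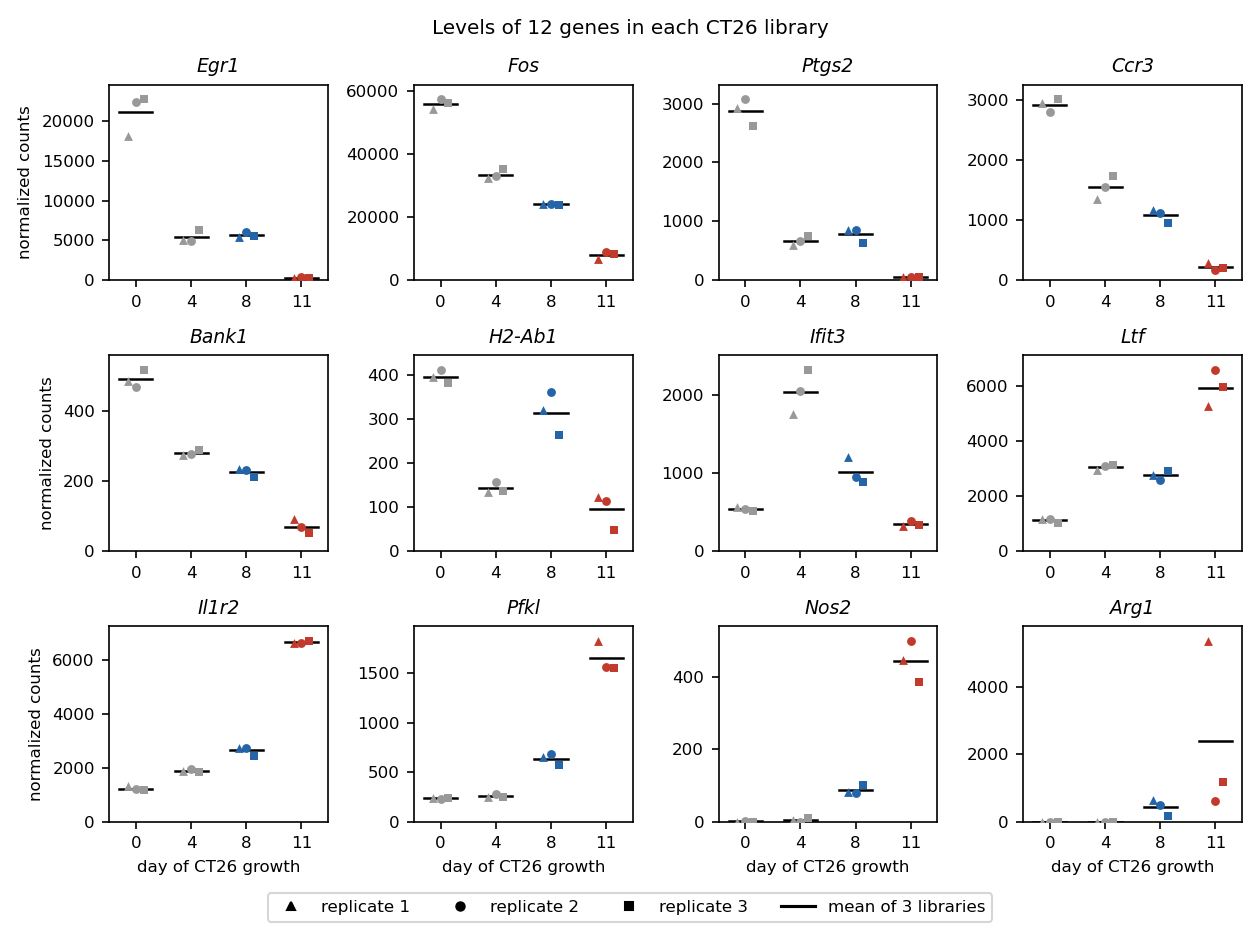
Normalized counts (vertical axes, linear scale from 0) of 12 genes in each of the 12 CT26 libraries by day (0, 4, 8 and 11, horizontal axes), with a point per library and the mean of each day. Egr1, Fos, Ptgs2, Ccr3, Bank1, H2-Ab1 and Ifit3 have all 3 day 11 points below the day 8 points, Ltf, Il1r2, Pfkl and Nos2 have them above, and those of Arg1 overlap.

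Most neutrophil granule genes were higher at day 11. Of 21 genes for proteins of secondary and tertiary granules, all of which could be tested, 14 were higher and none was lower at day 11, and 16 were higher without day 11 replicate 1. The median log2 difference was 0.51 with that library and 0.65 without it. Ngp (chromosome 9, 110419747 to 110423012, plus strand), neutrophilic granule protein, had 10826, 13226 and 13049.8 normalized counts at day 11 against 5349, 5483 and 5595 at day 8 (log2 difference 1.17 ± 0.08, adjusted p = 6.92e-08). Ltf, lactoferrin, had 5296, 6607 and 5972 at day 11 against 2777, 2576 and 2920.0 at day 8 (log2 difference 1.11 ± 0.09, adjusted p = 1.88e-07). Neither gene had overlapping groups.

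Further granule genes called higher had log2 differences on both sides of these. Chil3, a chitinase-like protein of young neutrophils and monocytes, had 645, 386 and 428 at day 11 against 123, 103 and 120.4 at day 8 (log2 difference 2.03 ± 0.16). Itgb2l, an integrin-like gene of maturing neutrophils, had 167, 182 and 275 at day 11 against 75.0, 57.3 and 86.7 at day 8 (log2 difference 1.48 ± 0.19). Camp, the antimicrobial peptide precursor cathelicidin, had a smaller difference, with 873, 1169 and 942 at day 11 against 608, 585 and 631 at day 8 (log2 difference 0.70 ± 0.12). The iron-binding lipocalin Lcn2 and the collagenase Mmp8 had log2 differences of 0.78 and 0.84. Mmp9, a gelatinase of tertiary granules, had 41770.3, 54881 and 46508 at day 11 against 42806, 43676 and 45787 at day 8, with overlap and an adjusted p of 0.583. Of 10 listed genes of primary granules and of promyelocytes, the precursors that make these granules, 4 passed the filter. Prtn3, a granule protease, was higher, and Cebpe, a transcription factor of granulocyte maturation, was lower; without day 11 replicate 1 there were 0 higher and 2 lower. The call of Prtn3, proteinase 3, ended in 11 of the 21 alternatives, one of which leaves out day 11 replicate 1 (183, 71.3 and 66.7 at day 11 against 51.0, 45.0 and 36.7 at day 8, adjusted p = 0.0334 with all libraries and 0.123 without it). The summed level of the list was 277 to 402 at day 11 against 288 to 397 at day 8, and Ctsg was at 0 at day 11.

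Mature neutrophil genes were higher in 11 of 26 members tested and lower in 1, the chemokine receptor gene Cxcr4 (log2 difference -0.25, adjusted p = 0.0417). With day 11 replicate 1 left out there were 17 higher and 1 lower. Among those that rose were stefin A genes, which encode inhibitors of cysteine proteases and whose reads are hard to place among near-identical copies. Stfa2 had 3234, 4088 and 4079 normalized counts at day 11 against 968, 1185 and 1323 at day 8 (log2 difference 1.72 ± 0.12). Il1r2 (chromosome 1, 40074079 to 40125231, plus strand), a decoy receptor that binds interleukin-1 without signalling, was even within the groups, with 6644, 6659 and 6733 at day 11 against 2752, 2740.4 and 2463 at day 8. Its log2 difference was 1.33 ± 0.07, with an adjusted p of 2.34e-09. The calgranulin genes S100a8 and S100a9 did not pass the test (log2 differences 0.19 and 0.20, adjusted p = 0.484 and 0.523). Cxcr2 and Csf3r, the receptors for neutrophil chemokines and for G-CSF, were not called either (adjusted p = 0.153 and 0.871), and Cxcr2 was called higher without day 11 replicate 1 (adjusted p = 0.00125). Beside these rises, the markers of eosinophils, B cells, T cells and NK cells given above were lower in the same libraries; their part in the result was not tested.

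**Figure D3:**
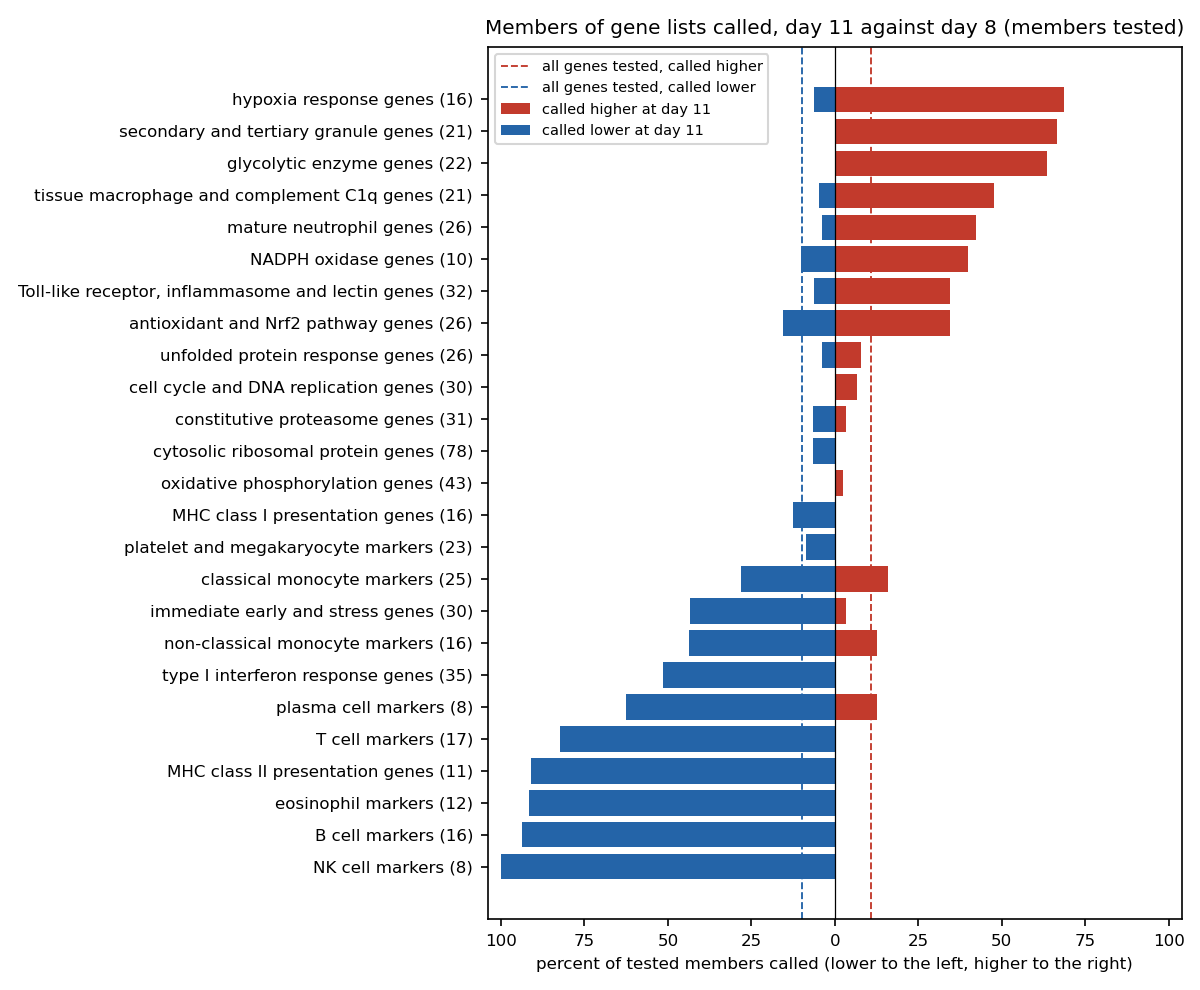
Percent of the tested members of 25 gene lists called lower (left) and called higher (right) at day 11 relative to day 8, with dashed lines for all genes tested (9.94% lower, 10.9% higher). Eosinophil, B cell, T cell, NK cell and class II lists reach far past the line on the lower side, and granule, glycolysis and hypoxia lists on the higher side.

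Genes of glycolysis and of the hypoxia response rose together. Of 22 glycolysis genes tested, 14 were higher and none was lower (median log2 difference 0.51), and 17 were higher without day 11 replicate 1. Of 16 hypoxia response genes tested, 11 were higher and 1 was lower, with or without that library (median 0.50). Pfkl (chromosome 10, 77986947 to 78010083), the liver-type phosphofructokinase that commits sugar to glycolysis, had 1828, 1564 and 1556 normalized counts at day 11 against 649.6, 688 and 576 at day 8 (log2 difference 1.37 ± 0.09, adjusted p = 2.65e-08). Pgam1, phosphoglycerate mutase, had 5023, 5146 and 4304 at day 11 against 1999.9, 2121 and 2007 at day 8 (log2 difference 1.24 ± 0.09). The groups were far apart in both. The glucose carrier Slc2a1 had 5240.0, 7159 and 6039 at day 11 against 4079, 4178 and 4323 at day 8 (log2 difference 0.54 ± 0.10). Ldha, lactate dehydrogenase, had 7430.2, 8177 and 7051 at day 11 against 3972, 4468 and 4471 at day 8 (log2 difference 0.81 ± 0.08). Neither gene had overlapping groups. Slc2a3, the other main glucose carrier of leukocytes, had overlapping groups and was not called (adjusted p = 0.415).

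P4ha1, the collagen prolyl 4-hydroxylase subunit, had 1404, 1327 and 1081 normalized counts at day 11 against 359, 379.5 and 343 at day 8 (log2 difference 1.81 ± 0.11, adjusted p = 8.48e-09). Egln3, the oxygen-sensing hydroxylase that marks HIF subunits for destruction and is itself a HIF target, had 1630.0, 1668 and 1379.7 at day 11 against 533, 589 and 513 at day 8 (log2 difference 1.51 ± 0.09, adjusted p = 8.48e-09). Bnip3, which directs mitochondria to autophagy, had 2032, 1939 and 1715 at day 11 against 915, 1056 and 917 at day 8 (log2 difference 0.98 ± 0.09). None of these genes had overlapping groups. Hif1a itself had 2764, 3798 and 3128 at day 11 against 2995, 2854 and 3329 at day 8, with overlap and an adjusted p of 0.673. The member that fell was Plin2, a coat protein of lipid droplets (2454, 1279 and 1219.9 at day 11 against 2923, 3121 and 2809 at day 8, log2 difference -0.91 ± 0.18).

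HIF-1 binds DNA at the letters ACGTG, so the promoter windows of the called members with the smallest p that hold these letters are printed. They come from the same RefSeq table and have the same extent as those above. Capitals mark ACGTG on the printed strand or CACGT where it lies on the other strand. ACGTG overlaps the E-box CACGTG, which other factors bind. Egln3 lies at chr12:54203825-54204124 on the minus strand, P4ha1 at chr10:59323046-59323345 on the plus strand and Pgam1 at chr19:41911621-41911920 on the plus strand.
Egln3: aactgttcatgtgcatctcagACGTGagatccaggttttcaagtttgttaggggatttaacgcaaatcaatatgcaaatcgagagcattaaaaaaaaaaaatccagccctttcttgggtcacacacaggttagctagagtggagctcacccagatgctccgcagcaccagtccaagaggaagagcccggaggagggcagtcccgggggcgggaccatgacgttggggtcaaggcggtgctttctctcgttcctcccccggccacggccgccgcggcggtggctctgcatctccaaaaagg
P4ha1: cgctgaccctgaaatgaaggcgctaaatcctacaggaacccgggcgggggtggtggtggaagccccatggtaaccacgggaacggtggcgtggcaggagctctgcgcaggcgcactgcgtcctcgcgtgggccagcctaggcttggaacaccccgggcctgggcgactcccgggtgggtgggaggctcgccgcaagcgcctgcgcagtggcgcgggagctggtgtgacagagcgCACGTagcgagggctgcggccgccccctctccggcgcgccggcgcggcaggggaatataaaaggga
Pgam1: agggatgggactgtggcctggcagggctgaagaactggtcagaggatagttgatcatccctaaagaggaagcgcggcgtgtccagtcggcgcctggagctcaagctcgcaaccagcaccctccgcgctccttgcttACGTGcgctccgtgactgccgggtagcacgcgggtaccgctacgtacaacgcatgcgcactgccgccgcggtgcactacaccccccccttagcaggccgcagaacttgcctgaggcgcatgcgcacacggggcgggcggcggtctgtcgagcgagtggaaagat
Each window holds 1 such stretch, and Pfkl, with a smaller p than Pgam1, was passed over because its window holds none. Among genes of both lists called higher, 19 of 35 windows held the letters (54.3%), against 6447 of all 32851 windows (19.6%). In members not called higher, 10 of 16 windows held them (62.5%). A match says only that the letters are there.

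The suppressor effector list holds genes through which these cells are known to restrain T cells, but also receptor genes such as Cd14 and Il4ra. Of its 27 tested members 10 were higher and 1 was lower, Ptgs2, with a median log2 difference of 0.20. A member called higher is therefore not always an effector. Without day 11 replicate 1 there were 13 higher and 2 lower. Nos2 (chromosome 11, 78920787 to 78960254, plus strand), the inducible nitric oxide synthase, had 445, 499 and 384 normalized counts at day 11 against 82.0, 79.8 and 102 at day 8. All 3 day 11 libraries lay well above the day 8 libraries, with a log2 difference of 2.32 ± 0.52 (adjusted p = 0.00418), and 2.31 without day 11 replicate 1 (adjusted p = 0.00478). Arg1 (chromosome 10, 24915221 to 24927484, minus strand), arginase, had 5379, 628 and 1175 at day 11 against 659.6, 503 and 161 at day 8. One day 11 library lay below a day 8 library, and replicate 1 was far above the rest. The log2 difference was 2.07 ± 0.71 with an adjusted p of 0.0466, but it was 1.19 with an adjusted p of 0.157 without that library, and the call ended in 14 of the 21 alternatives.

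Other members moved by less. Il4ra, the receptor for interleukin-4 and interleukin-13, had 9172, 12511 and 10984 at day 11 against 7149, 7334 and 7732 at day 8 (log2 difference 0.55 ± 0.10, adjusted p = 0.00069). Cd14, a co-receptor for bacterial lipopolysaccharide, had 4849, 5349.9 and 4525 at day 11 against 3573, 3371 and 3095 at day 8 (log2 difference 0.55 ± 0.08). Both were free of overlap. Cd274, which encodes the T cell inhibitor PD-L1, had 1423, 2843 and 2118 at day 11 against 2972, 2102 and 2530.2 at day 8, with overlap and an adjusted p of 0.258. Il1b had 38394, 51501 and 51306 at day 11 against 56614, 59070.3 and 59903 at day 8. Its groups did not overlap, but the log2 difference of -0.33 ± 0.14 did not pass the test (adjusted p = 0.0999). Il1b was called lower in 6 of the 21 alternatives, so its place near the threshold depended on the setting.

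Genes of the NADPH oxidase, which makes superoxide in phagocytes, showed its cytosolic parts higher. Of 10 tested, the ones called higher were Ncf1, Ncf4, Rap1a and Rac1, and the one called lower was Hvcn1, a proton channel; without day 11 replicate 1 there were 5 higher and 1 lower. The calls of Rap1a and Hvcn1 ended in 4 and 3 of the 21 alternatives, the count tests on 8 libraries among them. Ncf1, the organizing subunit p47-phox, had 10774, 10956 and 11240.0 normalized counts at day 11 against 7358, 7406 and 7736 at day 8 (log2 difference 0.55 ± 0.07, adjusted p = 5.81e-05), with the groups well apart. Cybb, the membrane subunit that carries the electrons, overlapped between groups (2119, 1767 and 1596 at day 11 against 1942, 1801 and 1803 at day 8, adjusted p = 0.885). Antioxidant genes were divided, with 9 of 26 higher and 4 lower (Cat, Nqo1, Slc7a11 and Gss), and 9 and 5 without day 11 replicate 1. The balance turned with the scaling, to 6 higher and 8 lower with each library brought to one total, and 6 and 7 with one upper quartile. Cat, catalase, had 249.9, 116 and 125 at day 11 against 527, 504 and 449 at day 8 (log2 difference -1.67 ± 0.20), and -2.02 without day 11 replicate 1. Among those called higher, Txnrd1, thioredoxin reductase, had 907, 1147 and 947 at day 11 against 633, 657 and 738 at day 8 (log2 difference 0.56 ± 0.10).

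Genes of a mixed list of innate sensing, not all of them receptors for microbial products, were mostly higher where they changed. Of 32 Toll-like receptor, inflammasome and lectin genes tested, 11 were higher and 2 lower, and 17 and 1 without day 11 replicate 1; the number higher dropped to 3 in edgeR on 8 libraries. Tlr1 had 3436, 4311 and 4222 normalized counts at day 11 against 2309, 2340.5 and 2636 at day 8 (log2 difference 0.71 ± 0.10, adjusted p = 5.92e-05). Il1rap, the shared signalling chain of the interleukin-1 family receptors, had 7226, 10522 and 9142 at day 11 against 5132, 4988 and 5418 at day 8 (log2 difference 0.78 ± 0.11). The groups were apart in both genes. Tlr9, a DNA sensor also found in B cells, was lower, with 14.4, 3.45 and 6.90 at day 11 against 32.0, 32.7 and 26.5 at day 8. The other member called lower was Tlr5, the flagellin receptor, with 186, 288 and 244 at day 11 against 318, 293 and 379.5 at day 8. The call of Tlr5 ended without day 11 replicate 1 (adjusted p = 0.118).

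Monocyte genes moved in both directions. Of 25 classical monocyte markers tested, 7 were lower and 4 higher (Chil3, Cd14, F13a1 and Ccr1), and 11 were lower and 4 higher without day 11 replicate 1. Ccr2, the receptor by which monocytes leave the marrow, had 64.0, 44.9 and 69.0 normalized counts at day 11 against 173, 165 and 201 at day 8 (log2 difference -1.60 ± 0.18, adjusted p = 8.13e-06). Csf1r, the growth factor receptor of monocytes, was not called, with 7894, 9198 and 8153 at day 11 against 8328, 8009.6 and 8246 at day 8 (adjusted p = 0.806). Of 16 non-classical monocyte markers, 7 were lower and 2 higher (Treml4 and Pglyrp1). Ace, angiotensin-converting enzyme, had 5.41, 16.1 and 5.75 at day 11 against 96.9, 85.9 and 105 at day 8 (log2 difference -3.42 ± 0.27, adjusted p = 1.88e-07). In Ccr2 and Ace the day 11 libraries were all below the day 8 libraries.

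Some macrophage genes were higher at day 11, with the highest levels in day 11 replicate 1. Of 21 tissue macrophage and complement C1q genes tested, 10 were higher and 1 lower, with a median log2 difference of 1.66. Without that library 5 were higher and 1 lower, and the median was 0.81. The number higher was 3 when days 8 and 11 were fitted alone, 2 without day 8 replicate 3, and ran from 0 to 14 over the 21 alternatives. C1qa, which starts the classical complement pathway, had 2237, 299 and 478 normalized counts at day 11 against 246, 194 and 109 at day 8 (log2 difference 1.97 ± 0.52, adjusted p = 0.0122). Without day 11 replicate 1 its log2 difference was 1.12 (adjusted p = 0.0343), and the calls of C1qb and C1qc ended (adjusted p = 0.0922 and 0.0884).

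Lyve1 (chromosome 7, 110850607 to 110863239, minus strand), a hyaluronan receptor of tissue macrophages and lymph vessels, had 371, 49.5 and 79.3 at day 11 against 28.0, 11.3 and 12.2 at day 8. Cd163, the scavenger receptor for haemoglobin, had 395, 38.0 and 67.8 at day 11 against 29.0, 12.3 and 10.2 at day 8. Neither gene had overlapping groups, and replicate 1 was several times above the other day 11 libraries in each. The log2 differences were 2.77 for Lyve1 and 2.63 for Cd163, and 1.93 (adjusted p = 0.00864) and 1.65 (adjusted p = 0.0376) without that library. Hmox1, haem oxygenase, had 7962, 3642 and 3954 at day 11 against 2858, 2849 and 2404 at day 8 (log2 difference 0.85, and 0.49 without replicate 1). The member that fell was Adgre1, the F4/80 antigen carried by macrophages and eosinophils (689, 204 and 266 at day 11 against 912, 818 and 708 at day 8, log2 difference -1.27, and -1.79 without replicate 1). Calls ended in 4 of the 21 alternatives for Cd163, 4 for Hmox1, 3 for Adgre1 and 1 for Lyve1. The summed level of the macrophage genes was 26165 to 45554 at day 11 against 23979 to 24978 at day 8. Replicate 1 had the highest value, and replicates 2 and 3 had 26273 and 26165. As a share of the library total the sum was 0.386%, 0.184% and 0.196% at day 11 against 0.209%, 0.199% and 0.196% at day 8. By share only replicate 1 was above the day 8 libraries. No listed macrophage gene was at 0 at day 11, and Clec4f, a gene of liver macrophages, was at 0 at day 8. Saa3, an acute-phase gene of macrophages, also stood highest in replicate 1 (2313, 369 and 578 at day 11 against 288, 249 and 88.8 at day 8).

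**Figure D4:**
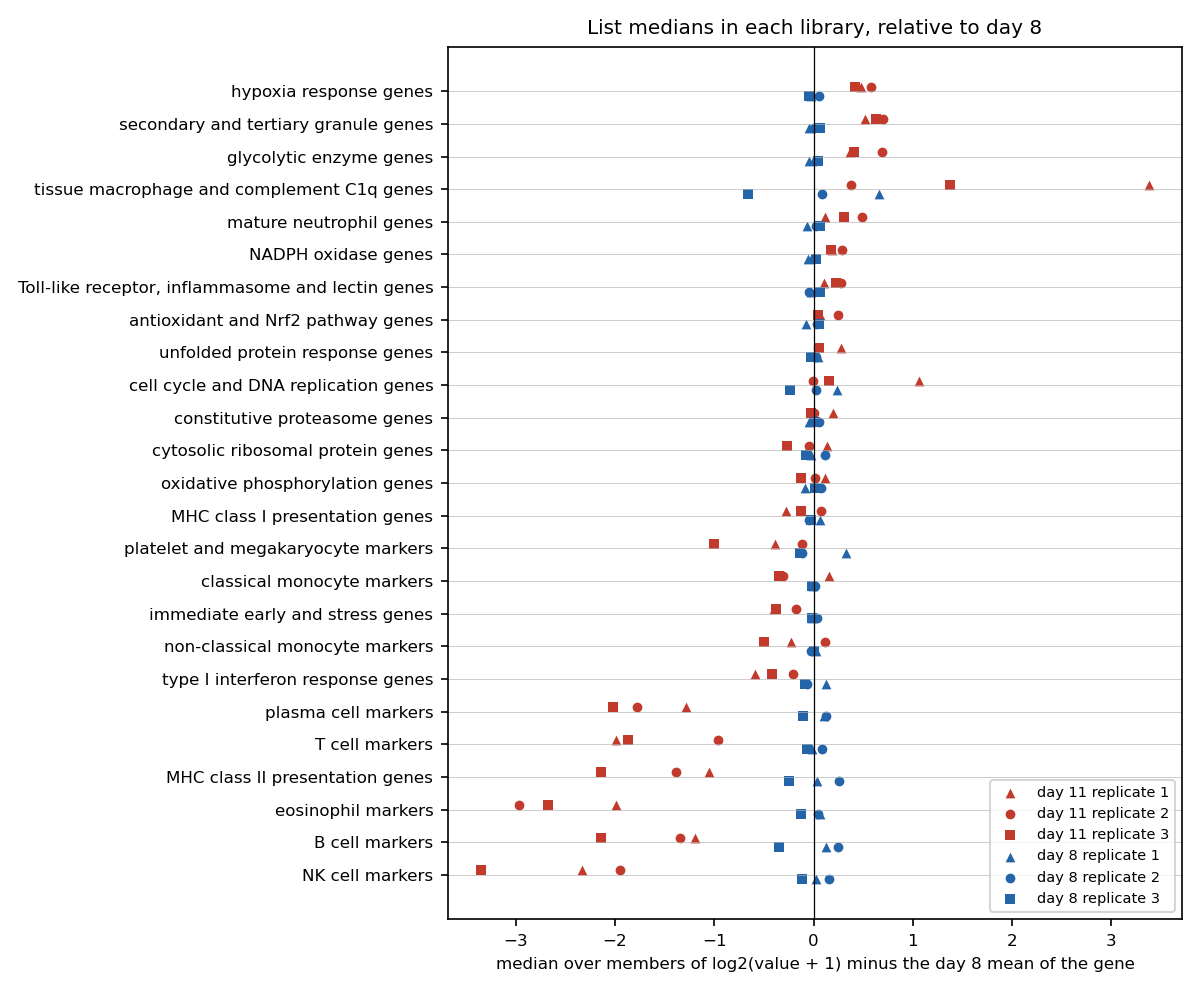
Median over list members of log2(value + 1) minus the day 8 mean of the gene (horizontal axis) in each day 11 library (red) and day 8 library (blue), by gene list (rows). Macrophage genes stand highest in day 11 replicate 1, while granule and glycolysis lists are above the day 8 libraries and eosinophil, B cell and class II lists below them in all 3 day 11 libraries.

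Slc4a3 and Nars2, outside the lists, had the largest rises of the genes named by the rule. Slc4a3 (chromosome 1, 75546266 to 75562172, plus strand), an anion exchanger known from heart and brain, had 287, 247 and 18.4 normalized counts at day 11 against 0.999, 0 and 0 at day 8. It was high in 2 of the day 11 libraries and lower in replicate 3. It had 549 reads at day 11 against 1 at day 8, a ratio of 570.3 with a 95% interval of 102 to 22567 that covers counting error only and not the spread between the libraries. The read at day 8 was in replicate 1, a library whose read recovery was not accepted. The call of Slc4a3 ended in limma-voom (largest adjusted p = 0.32). Nars2 (chromosome 7, 96951505 to 97064758, plus strand), the mitochondrial asparaginyl-tRNA synthetase, had 188, 235 and 224 at day 11 against 19.0, 16.4 and 19.4 at day 8 (log2 difference 3.49 ± 0.26, adjusted p = 9.03e-08). Every day 11 library was far above every day 8 library, and the difference was 3.58 without replicate 1.

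Further genes rose in all 3 day 11 libraries. Tg, thyroglobulin, had 183, 213 and 231 at day 11 against 42.0, 46.0 and 24.5 at day 8 (log2 difference 2.49 ± 0.24). Pik3ip1, an inhibitor of PI3-kinase, had 314, 286 and 381 at day 11 against 77.0, 73.7 and 59.2 at day 8 (log2 difference 2.21 ± 0.16). Avil, an actin-binding protein, and Cyp2s1, a cytochrome P450, had log2 differences of 2.15 and 2.54. Kit, the stem cell factor receptor of progenitors and mast cells, had 156, 289 and 215 at day 11 against 45.0, 62.4 and 74.5 at day 8 (log2 difference 1.83 ± 0.32, adjusted p = 0.000593). Other genes of these cells fell: Il4, a cytokine of basophils and mast cells, had 0.902, 0 and 2.30 at day 11 against 24.0, 21.5 and 22.4 at day 8 (log2 difference -3.68 ± 0.37, adjusted p = 3.36e-06). Meis1, a progenitor transcription factor, had 6.31, 2.30 and 12.6 at day 11 against 24.99, 37.8 and 17.3 at day 8 (log2 difference -1.94 ± 0.41, adjusted p = 0.00316). Of 5 basophil and mast cell markers tested, 2 were higher (Kit and Hdc) and 2 lower (Il4 and Gata2), and of 8 progenitor genes 1 was higher (Kit) and 2 lower (Meis1 and Gata2). The call of Gata2 ended in 12 of the 19 alternatives that tested it, and Mcpt8, Fcer1a, Prss34 and Cyp11a1 were at 0 at day 11, against Fcer1a and Prss34 at day 8. Among the largest rises, Cbr2, Lyve1, Gpx3 and Cd163 followed the macrophage genes in being highest in replicate 1.

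Falls outside the groups described included Inpp5j, an inositol phosphatase, with 64.9, 19.6 and 28.7 at day 11 against 357, 291 and 266 at day 8. F2r, the thrombin receptor, had 14.4, 2.30 and 6.90 at day 11 against 76.0, 61.4 and 43.9 at day 8. Adamdec1, a metalloprotease-like protein of macrophages and dendritic cells, had 21.6, 6.90 and 14.9 at day 11 against 89.0, 103 and 96.9 at day 8. Their log2 differences were -3.14, -3.02 and -2.78, and in each the day 11 libraries all lay below the day 8 libraries. On chromosome 11 Inpp5j (minus strand) overlaps Pla2g3 (plus strand), which was also called lower (log2 difference -2.85). Strandedness was not given, so the falls of Inpp5j and Pla2g3 cannot be told apart. Of the 179 genes named by the rule, 143 were called both with all libraries and without day 11 replicate 1. A further 5 were called only with all libraries, 6 only without that library, and 25 in neither case.

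**Figure D5:**
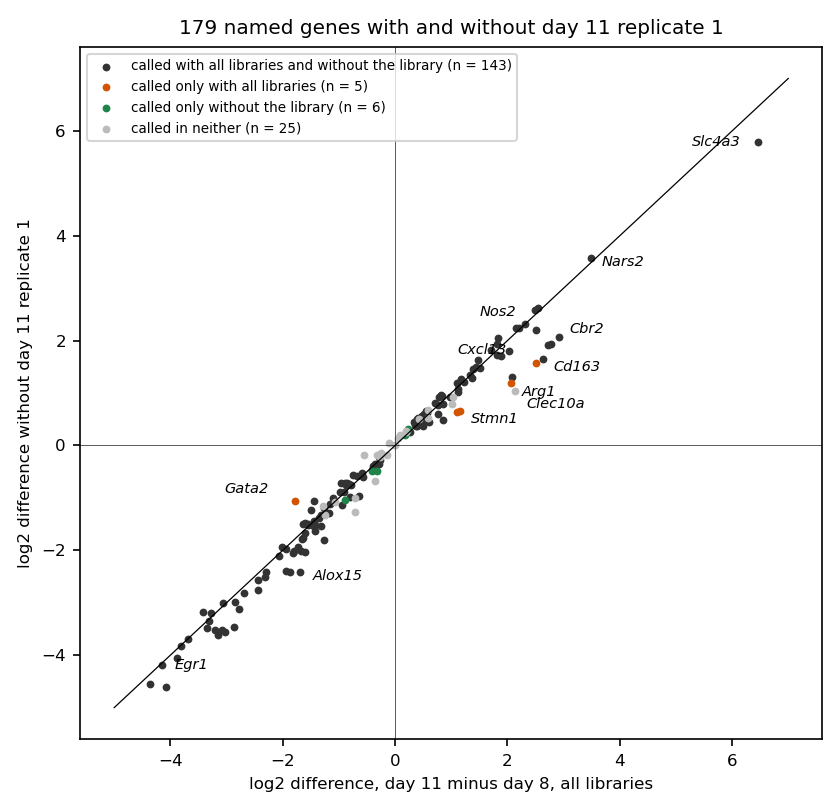
Log2 difference between day 11 and day 8 of 179 named genes with all libraries (horizontal axis) and without day 11 replicate 1 (vertical axis). Most points lie near the line of equal values. Macrophage genes such as Cd163 and Lyve1 lie below it on the higher side, as does Arg1. Among the falls some genes, such as Adgre4, Inpp5j and F2r, lie below the line and others, such as Gbp4, above it.

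The step was placed in the course over the 4 days by description only, since the day 8 libraries enter both differences. Of the 1244 genes higher at day 11, 957 moved away from their day 0 level. The other 287 (23.1%) moved in the direction of day 0, a count that includes genes that passed their day 0 level. Among the 1244, 1206 (96.9%) had a day 11 mean above all other day means, so most of the 287 passed it. Of the 1131 lower genes, 821 moved away from day 0 and 310 (27.4%) in its direction, again with those that passed it. Among the 1131, 1064 (94.1%) were below all other day means. The mean of Egr1 was 21115 normalized counts at day 0, 5409 at day 4, 5709 at day 8 and 327 at day 11. Ptgs2 had the same shape, with means of 2874, 667, 778 and 54.4. In Ccr3 the means were 2919, 1542, 1080.1 and 222, lower at each later day.

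Not all groups had the same shape. All 11 eosinophil, 15 B cell, 14 T cell, 8 NK cell and 10 class II genes called lower had their lowest mean at day 11. Over all genes called lower that share was 94.1%, so this course was not particular to these groups. Of the 18 interferon response genes called lower, 8 were lowest at day 11 and 10 were still above day 0, and Ifit3 averaged 535, 2039, 1010.0 and 342 at days 0, 4, 8 and 11. Jchain also peaked in between, with means of 107, 732, 251 and 16.2. All 14 granule genes and all 11 mature neutrophil genes called higher had their highest mean at day 11. Over all genes called higher that share was 96.9%. Ngp averaged 1988, 5278, 5476 and 12367 over the 4 days, and Pfkl 238, 261, 638 and 1649. Nos2 was near 0 early, with means of 1.55 and 4.92 at days 0 and 4, then 87.9 at day 8 and 443 at day 11.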

How the data were processed

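Poly-A RNA-seq libraries were compared, 3 at day 11 and 3 at day 8 of CT26 growth. Per the file headers, the signal that the authors deposited for each gene is a normalized count, made by them by dividing reads by one factor per library. As a check, 100% of a library's values could be written as a whole number times its own step (tolerance 0.001). DESeq2 1.6.3, HTSeq 0.6.1p1, TopHat2 2.0.10 and cutadapt, with build mm10, appear in the submitters' processing notes, which do not give their order. The annotation and strandedness were not given in the sources used here, so reads of overlapping and antisense genes cannot be told apart.

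From these values limma 3.58.1 (R 4.3.3) was fitted with a trend to log2(value + 1) over all 12 CT26 libraries with a mean per day, for 11373 of 24421 genes with a mean of at least 5, 2-sided, with Benjamini-Hochberg adjustment over all of them and a threshold of 0.05. Every adjusted p in the text comes from this fit unless another tool is named. Fold changes on this scale understate the change of low genes. The other tumour model was normalized apart and is not used here. The code of the fit was also run on simulated counts. In these no library stood apart as day 11 replicate 1 does, so that run does not measure the error of the fit in these data. The members and the 44 lists were chosen with earlier results of these data known, and the lists share members. Named genes are, among called genes that average 50 or more in either group, the 12 with the largest change in each direction and no overlap, then Arg1, Nos2, S100a8, S100a9, Ptgs2 and Il1b, then up to 4 members of each list with the smallest p; some are not described here.

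Alternatives were pseudocounts of 0.5 and 5, other filters, other scalings, days 8 and 11 alone, no trend, each replicate left out, a replicate block, and edgeR 4.0.16, DESeq2 1.42.0 and limma-voom on recovered reads. The recovery was accepted in 8 libraries. In 4, day 8 replicate 1 among them, the step lies near 1 and it was not; the count tests on all 12 were added after seeing the data. Recovered reads were 11.6e6 to 13.1e6 in the 6 libraries compared. All 179 named genes were found in the GRCm38 annotation that gave the coordinates. The printed promoters were chosen anew after their letters were seen. Plots used python 3.11.15 with matplotlib 3.10.9. Some genes are not reported here.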

Additional observations from a re-analysis of the deposited data

How the results depend on the processing

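No gene was called with opposite signs in the main test and any of the 21 alternatives. Of the values of named genes under these alternatives, 3413 kept their direction and side of the threshold, 274 lost the call, 51 gained it and 0 reversed. Fitting days 8 and 11 alone called 1412 genes (744 higher, 668 lower) instead of 2375 (1244 and 1131), with fewer samples behind the spread. On reads of 8 libraries, with 2 at day 8, edgeR called 996 (382 and 614), DESeq2 814 (440 and 374) and limma-voom 935 (356 and 579). On reads of 12 libraries they called 2361 (1036 and 1325), 2181 (1262 and 919) and 2241 (968 and 1273). Scaling to one total gave 821 higher and 1688 lower, and scaling to the upper quartile 955 and 1491; the cause was not tested. Leaving out 1 library at a time gave 1579 to 3428 genes, 780 to 1917 of them higher and 799 to 1511 lower, most without day 11 replicate 1 and fewest without day 8 replicate 1. The called genes that moved in the direction of day 0, with those that passed it, numbered 597 in the main test. They numbered 310 with days 8 and 11 alone and 361 to 816 with a library left out. In edgeR, DESeq2 and limma-voom on 8 libraries they numbered 214, 154 and 212. With the replicate number as a block 2193 genes were called (1136 and 1057), 2158 of them shared with the main test. Deviations of same-numbered libraries correlated at 0.223, -0.141 and 0.214, and those of libraries with unlike numbers at -0.359 to 0.26. With 3 libraries a day these values cannot decide whether the numbers pair the libraries. Depth limits the NK and T cell markers, whose summed levels in a day 11 library were 9.20 to 27.6 and 322 to 412 normalized counts. Over the alternatives the number of members called lower ran from 11 to 22 for interferon response genes, 4 to 8 for antioxidant, 0 to 6 for class I, 1 to 8 for NK cell, 4 to 14 for T cell, 2 to 5 for plasma cell and 11 to 19 for immediate early genes. The number called higher ran from 9 to 16 for granule, 6 to 17 for mature neutrophil, 5 to 13 for suppressor effector, 10 to 17 for glycolytic, 3 to 10 for antioxidant and 2 to 5 for NADPH oxidase genes. Under the scaling to one total the medians of the NF-kB, chemotaxis, BCL2, proteasome, erythroid, metalloproteinase and prostaglandin lists, all near 0, changed sign.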

Other observations

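Several groups not described above held genes called in one or both directions. Over all genes tested 10.9% were higher and 9.94% lower. Of 26 cytokine and chemokine genes, the ones higher at day 11 were Vegfa and Csf1, and the ones lower were Ccl5, Osm, Cxcl10, Il18 and Tnf. Osm, oncostatin M, had 1164, 1475 and 1373 normalized counts at day 11 against 1899, 2227 and 2317 at day 8 (log2 difference -0.69 ± 0.10, limma adjusted p = 0.000161). Of 15 BCL2 family genes, those higher were Bnip3l, Bcl2l1, Bcl2l11 and Bad, which include both protectors and promoters of cell death, and the one lower was Bmf. Of 26 genes of G-CSF, GM-CSF and STAT signalling, 6 were higher and 2 lower, the feedback inhibitors Socs1 and Cish. Without day 11 replicate 1 there were 13 higher and 3 lower, and with each library scaled to one total 5 and 5. Of 26 chemotaxis and adhesion genes, 4 were higher and 6 lower, and 7 and 8 without day 11 replicate 1. Among the lower ones Itgb3, the integrin beta3 chain, had 139, 141 and 123 at day 11 against 398, 348 and 388 at day 8 (log2 difference -1.48 ± 0.10). The metalloproteinase genes Mmp8, Adam10, Mmp19 and Adam9 were higher out of 14 and none was lower.

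Lists of basic cell machinery held few called genes. Of 43 oxidative phosphorylation genes 1 was higher, Atp5b, and none lower. Of 30 cell cycle genes Pcna and Stmn1 were higher and none lower, and Stmn1 kept its call in few alternatives (it ended in 16 of 21). The median log2 difference of the cell cycle list was 0.38, and -0.03 without day 11 replicate 1. Of 78 ribosomal protein genes 5 were lower (Rplp0, Rpl13, Rpl12, Rpl13a and Rpl10a), and 22 without day 11 replicate 1. Of 23 platelet markers Itgb3 and F2rl2 were lower and none higher.

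The remaining lists, given as members called higher and members called lower at day 11 of those tested, were small or mixed. Of 18 NF-kB subunit and feedback genes 3 were higher and 2 lower (3 and 7 with each library scaled to one total), of 26 unfolded protein response genes 2 and 1, of 17 cholesterol genes 2 and 2, and of 31 proteasome genes 1 and 2. Of 16 peritoneal-type macrophage and acute-phase genes 4 were higher and 1 lower, and of 9 dendritic cell markers 0 and 2. Of 6 erythroid markers 1 was higher and 0 lower, of 7 fibroblast and endothelial markers 0 and 2, of 7 epithelial and carcinoma markers 1 and 1, and of 5 photoreceptor genes none was called.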
